A study of Homo sapiens with 24 samples.

Results

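The Yippee-like genes YPEL1, YPEL2, YPEL3, YPEL4 and YPEL5 were examined in HCC1954 and JIMT1 cells, a pair of breast cancer lines that the study counts as BYL719-insensitive. BYL719 inhibits PI3Kα and GSK2334470 inhibits PDK1. All 5 genes of the family were taken, each through its single probe on an Illumina HT-12 bead array, out of 47323 probes and 20046 named genes. The family was chosen by the rise of YPEL1 that had already been seen on the HCC1954 arrays under GSK2334470 and the combination, so the values of YPEL1 in that line are given as a description and carry no test. Treatment lasted 4 hr and consisted of 0.1% DMSO, 1 μM BYL719, 1 μM GSK2334470 or the combination. Each of the 8 groups held 3 arrays, labelled as biological replicates, so 24 arrays were read in all. Each line is an established culture of a single tumor, and by the labels the groups of a line differ only in the agents added. The labels used here give no culture day or bead chip.

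Yippee was first described in the fruit fly, and its relatives are found throughout the eukaryotes as small proteins built around a zinc-binding domain. In human cells YPEL1 to YPEL4 are close in sequence and YPEL5 stands further away. YPEL3 is known as a p53-induced gene that restrains proliferation and promotes senescence, and YPEL5 associates with the CTLH complex, a ubiquitin ligase. PI3K and PDK1 both act upstream of AKT and SGK kinases, which hold FOXO transcription factors in the cytosol, so that inhibition of the pathway is followed by transcription of FOXO targets.

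Values are background-corrected, quantile-normalized probe intensities on a log2 scale, to which an offset of 16 was added before the log, so that changes of dim probes are understated. A probe was called detected on an array when its deposited detection p-value, which compares it with the negative control probes, was under 0.05. A gene was tested if every array of some group detected it, which held for 12109 genes, and 4 of the 5 family members were among them. YPEL1 passed this filter only through the 3 treated groups of HCC1954. YPEL4 did not pass it. Median array intensity ran from 48.5 to 81.9 and the detected share of probes per array from 41.0% to 45.2%. All 6 epithelial markers examined and both genes of the ERBB2 amplicon (ERBB2 and GRB7) were detected on all 24 arrays. Of the leukocyte markers measured, PTPRC and CD3E were detected on 0 arrays and CD14 on 23. The endothelial markers PECAM1, CDH5 and VWF were detected on 24, 21 and 12 arrays, and the fibroblast markers COL1A1, COL1A2 and COL3A1 on 23, 9 and 1. The part of these genes in the results was not tested. Their summed normalized intensities, on the linear scale, ran from 92.8 to 161 in HCC1954 and 221 to 298 in JIMT1 for the leukocyte list, from 1066 to 1361 and 141 to 202 for the endothelial list, and from 99.1 to 166 and 106 to 165 for the fibroblast list. In HCC1954 the leukocyte sum was 92.8 to 96.1 under the combination and 123 to 161 under DMSO.

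YPEL3 and YPEL5 were detected on all 24 arrays, YPEL2 on 18, YPEL1 on 9 and YPEL4 on 0. Levels of different probes are not set against each other, since a probe's brightness depends on its own sequence. Fewer cells and less RNA per cell cannot be told apart in such bulk samples. In the plot of all arrays, 3 members rose with treatment in both lines, YPEL1 left the background only in treated HCC1954 cells, and YPEL4 stayed below detection throughout.

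**Figure D1:**
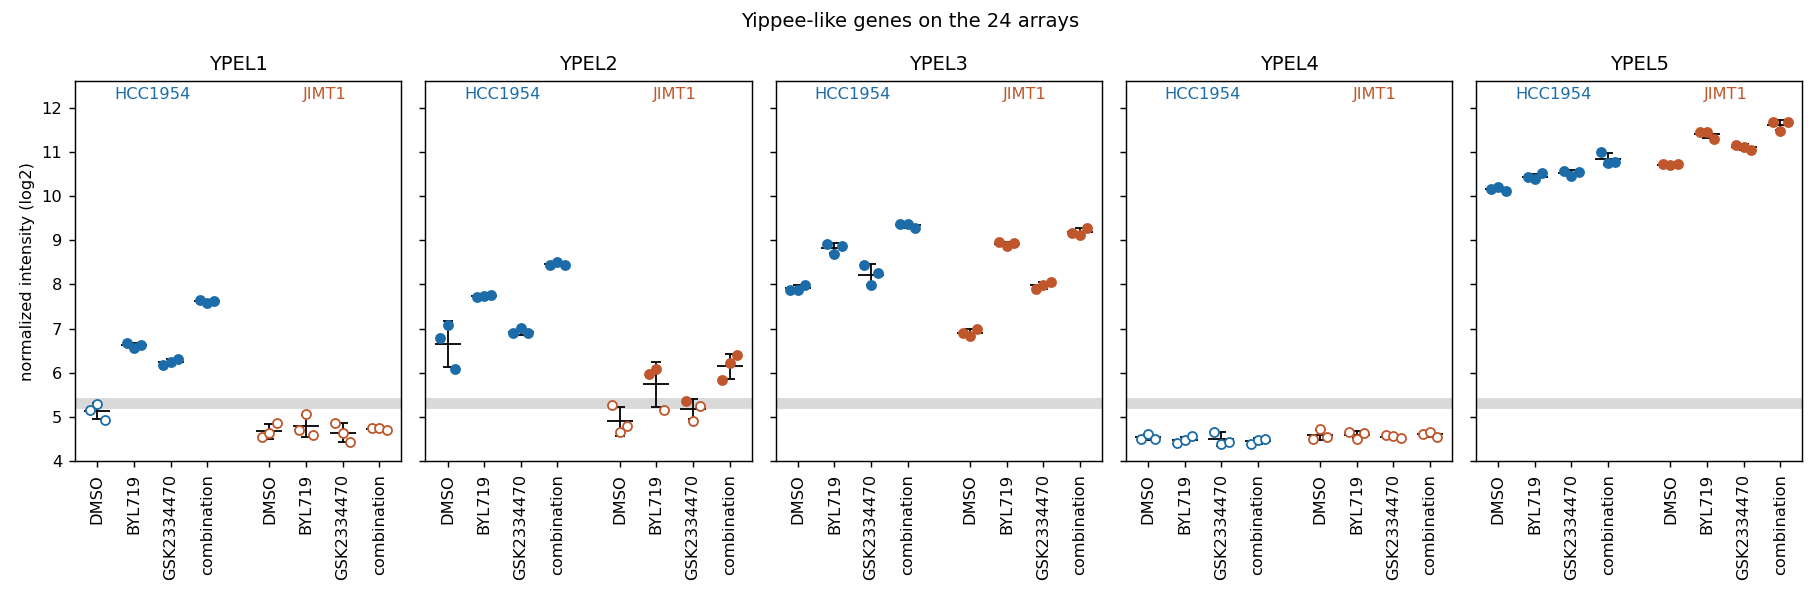
Normalized intensity (log2) of the 5 Yippee-like probes in HCC1954 (blue) and JIMT1 (orange) cells under DMSO, BYL719, GSK2334470 or the combination, 1 point per array, with the group mean and SD (n = 3). Filled points were detected and open points were not, and the grey band spans the lowest detected signal of each of the 24 arrays. YPEL3 and YPEL5 were detected on all 24 arrays and YPEL4 on 0.

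The upstream sequences of the 3 members that rose in both lines are shown because those genes moved together. RefSeq promoter windows of GRCh38.p14, each with 250 bases before and 50 bases after the annotated start, were found for 4 of the 5 members, all but YPEL1. The 250 upstream bases, 5′ to 3′ on the strand of the gene, lie at chr17:59331405-59331654 for YPEL2 (plus strand), at chr16:30096214-30096463 for YPEL3 (minus strand) and at chr2:30146757-30147006 for YPEL5 (plus strand). Capitals would mark a searched motif, and none was found in these stretches.
YPEL2: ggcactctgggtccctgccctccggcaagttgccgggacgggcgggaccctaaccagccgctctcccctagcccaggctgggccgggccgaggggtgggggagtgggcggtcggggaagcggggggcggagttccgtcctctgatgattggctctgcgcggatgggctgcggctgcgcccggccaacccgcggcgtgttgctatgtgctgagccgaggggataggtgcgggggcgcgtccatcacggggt
YPEL3: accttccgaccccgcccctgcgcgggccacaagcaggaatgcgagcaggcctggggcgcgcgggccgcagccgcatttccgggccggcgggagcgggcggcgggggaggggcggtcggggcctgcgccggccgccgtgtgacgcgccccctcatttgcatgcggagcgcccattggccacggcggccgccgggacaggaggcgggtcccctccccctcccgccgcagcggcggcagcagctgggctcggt
YPEL5: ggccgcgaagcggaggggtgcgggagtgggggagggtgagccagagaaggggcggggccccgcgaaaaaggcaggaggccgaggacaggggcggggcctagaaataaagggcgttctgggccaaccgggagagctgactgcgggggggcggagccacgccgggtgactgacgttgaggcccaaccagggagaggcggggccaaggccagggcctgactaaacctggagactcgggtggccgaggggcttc

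The windows were searched on both strands for the FOXO motif GTAAACA, the E-box CACGTG and the cyclic AMP response element TGACGTCA, which do not overlap as words. GTAAACA was found once, in the YPEL3 window on the strand of the gene, where its first base was the annotated start itself. The 30 bases around it, at chr16:30096195-30096224, are shown with the match in capitals.
YPEL3 site: ctgggctcggtGTAAACAagtccaggcgcc
GTAAACA was present in 3.42% of 35116 promoters of the same length, CACGTG in 7.26% and TGACGTCA in 1.85%, and neither of the latter was in any of the 4 windows. The windows were rich in G and C at 75% for YPEL2, 79% for YPEL3 and 70% for YPEL5, against 62.3% for YPEL4 and a median of 58.7% over all promoters. The observed CpG count over that expected from base composition was 0.81, 0.90 and 0.74 for YPEL2, YPEL3 and YPEL5, 0.38 for YPEL4, and 0.58 at the median of all promoters. A match describes the letters of these windows only, and binding was not measured.

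YPEL3 showed the largest measured change of the 3 members tested in JIMT1. Its values there were 6.91, 6.83 and 6.99 under DMSO and 8.96, 8.87 and 8.94 under BYL719. With GSK2334470 they were 7.90, 7.98 and 8.06. Under the combination they reached 9.16, 9.11 and 9.28. No treated array overlapped with a DMSO array, and the 3 arrays of each group lay within a narrow band. Mean levels were 6.91 ± 0.08 under DMSO and 8.92 ± 0.04 under BYL719 (SD, n = 3). YPEL3 rose by 2.01 on the log2 scale with BYL719 (SE 0.10, 4.04-fold, adjusted p = 3.33e-11) and by 1.07 with GSK2334470 (2.10-fold, adjusted p = 2.92e-06). With the combination it rose by 2.27 (4.83-fold, adjusted p = 1.33e-12). By the methods' t-test the GSK2334470 rise did not pass (adjusted p = 0.122). These changes ranked 6th, 8th and 11th from the largest rise among the 12109 genes of each comparison.

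In HCC1954, YPEL3 started from a higher level and rose less. The DMSO arrays read 7.88, 7.87 and 7.99, and the BYL719 arrays 8.92, 8.69 and 8.87. GSK2334470 gave 8.44, 7.98 and 8.26, of which the second lay just inside the DMSO range. The combination gave 9.37, 9.37 and 9.28, above every other array of the line. Before normalization some of these groups overlapped. In scanner intensities DMSO replicate 2, at 413, exceeded BYL719 replicate 2, at 372. Combination replicate 3, at 508, lay below BYL719 replicate 1, at 521. The rise was 0.91 with BYL719 (SE 0.10, 1.88-fold, adjusted p = 1.04e-05) and 1.43 with the combination (2.69-fold, adjusted p = 3.79e-09). By the methods' t-test the BYL719 rise did not pass (adjusted p = 0.0994). The difference of 0.31 with GSK2334470 did not pass the test (95% interval 0.11 to 0.51, adjusted p = 0.159). Without GSK2334470 replicate 2 it was 0.43 with an adjusted p of 0.034.

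The lines thus differed both in the level of YPEL3 and in its response. Under DMSO it was 1.00 higher in HCC1954 on the log2 scale, or 2.0-fold (adjusted p = 9.45e-09). Such differences were common, since 34.4% of genes were called higher in HCC1954 under DMSO. The rise with BYL719 was 1.10 smaller in HCC1954 than in JIMT1 on the log2 scale (difference of effects -1.10, SE 0.14, adjusted p = 0.000167). The corresponding difference for the combination was -0.84 (adjusted p = 0.000859), and a lower effect in HCC1954 was called for 0.851% of genes with BYL719 and for 3.05% with the combination. For GSK2334470 it was -0.76 (adjusted p = 0.0392, background 0.116%), a call that was lost in 14 of 21 other settings. Under the combination the ranges of YPEL3 in the lines overlapped, at 9.34 ± 0.05 in HCC1954 and 9.18 ± 0.09 in JIMT1 (SD, n = 3).

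The YPEL5 changes were smaller on the log2 scale, with little spread between arrays. In JIMT1 the DMSO arrays read 10.73, 10.70 and 10.71 and the BYL719 arrays 11.45, 11.46 and 11.30. GSK2334470 gave 11.16, 11.11 and 11.04, and the combination 11.68, 11.48 and 11.67. All treated arrays lay above all DMSO arrays. In scanner intensities, before normalization, GSK2334470 replicate 3, at 1797, lay below DMSO replicate 3, at 1887. The rises were 0.69 with BYL719 (SE 0.08, 1.61-fold, adjusted p = 7.47e-06), 0.39 with GSK2334470 (1.31-fold, adjusted p = 0.0141) and 0.90 with the combination (1.86-fold, adjusted p = 1.04e-07). The GSK2334470 call was lost, with adjusted p from 0.0529 to 0.0733, when JIMT1 DMSO replicate 2 or 3 or GSK2334470 replicate 1 or 2 was left out. It was also lost with median scaling (0.966), with JIMT1 arrays alone (0.0616) and by the methods' t-test (0.146), and median scaling ended the BYL719 call too (0.058).

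In HCC1954 the DMSO arrays of YPEL5 read 10.15, 10.22 and 10.11, those of BYL719 10.42, 10.38 and 10.51, and those of GSK2334470 10.57, 10.44 and 10.55. The combination gave 10.99, 10.74 and 10.78. Each treated group lay above DMSO without overlap, while the single agents overlapped with each other. Only the combination passed the test, with a rise of 0.68 (SE 0.08, 1.60-fold, adjusted p = 6.15e-06). The differences of 0.28 with BYL719 (95% interval 0.11 to 0.45, adjusted p = 0.0595) and 0.36 with GSK2334470 (0.19 to 0.53, adjusted p = 0.0764) did not. Without GSK2334470 replicate 2 the latter had an adjusted p of 0.0373. The separation of the combination depended on the normalization between arrays. The scanner intensities of YPEL5 were 1184, 1926 and 911 on the HCC1954 DMSO arrays and 1616, 1697 and 1416 on the combination arrays, which overlap, and with median scaling the rise was 0.52 (adjusted p = 0.0939). DMSO replicate 2, at 1926, also exceeded every BYL719 and GSK2334470 array, which reached 1421 and 1659.

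Under DMSO, YPEL5 was 0.55 lower in HCC1954 than in JIMT1 on the log2 scale (difference -0.55, adjusted p = 3.68e-06), opposite in direction to YPEL3. A lower level in HCC1954 was called for 35.4% of genes. No difference between the lines in a YPEL5 response passed the test. The difference was -0.41 for BYL719 (95% interval -0.65 to -0.17, adjusted p = 0.0835), -0.03 for GSK2334470 (-0.27 to 0.20) and -0.22 for the combination (-0.46 to 0.02). The gene table used lists 4 pseudogenes of YPEL5 and 0 of the other members, and whether their transcripts bind the YPEL5 probe was not tested.

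YPEL2 was detected on every HCC1954 array. Its DMSO values there, 6.78, 7.09 and 6.08, were the most scattered of any group of the line. BYL719 gave 7.72, 7.75 and 7.77, GSK2334470 6.89, 7.01 and 6.90, and the combination 8.44, 8.51 and 8.43. BYL719 and combination arrays all lay above DMSO, and GSK2334470 arrays lay within the DMSO range. The separation of BYL719 from DMSO depended on the normalization between arrays. Scanner intensities of YPEL2 were 142.6, 255.8 and 84.3 under DMSO and 245.4, 204.8 and 239.4 under BYL719, which overlap. Those of the combination, from 295 to 381, lay above DMSO there too. YPEL2 rose by 1.09 with BYL719 (SE 0.23, 2.14-fold, adjusted p = 0.0101) and by 1.81 with the combination (3.50-fold, adjusted p = 1.63e-05). Without DMSO replicate 3, the lowest array, the BYL719 rise was 0.81 with an adjusted p of 0.0591. It did not pass with median scaling (adjusted p = 0.101) or by the methods' t-test (adjusted p = 0.285), nor did the combination by that test (adjusted p = 0.0689). The difference of 0.28 with GSK2334470 did not pass (95% interval -0.20 to 0.77, adjusted p = 0.628).

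In JIMT1, YPEL2 was detected on none of the 3 DMSO arrays, on 2 of 3 with BYL719, on 1 of 3 with GSK2334470 and on all 3 with the combination. The DMSO values were 5.27, 4.66 and 4.79, with detection p-values of 0.0519, 0.581 and 0.332. BYL719 gave 5.97, 6.09 and 5.15, and the combination 5.85, 6.23 and 6.40. The combination arrays stood clear of DMSO, whereas the third BYL719 array did not. Because DMSO gives only a bound, folds are the mean of the brighter group over the mean, per dim array, of the lowest detected signal or the probe's own where that is higher. On this basis, at the offset used in the report, the combination gave a YPEL2 level at least 1.83-fold higher. The test was of the measured difference, 1.25 on the log2 scale (adjusted p = 0.000581), and not of the bound. Over the other settings that difference ran from 0.72 to 1.67. For BYL719 the same ratio was 1.37-fold, but it is no strict bound, since the third BYL719 array did not detect YPEL2. The measured difference with BYL719 was 0.83 (adjusted p = 0.0237). The BYL719 call was lost, with adjusted p from 0.0857 to 0.13, when DMSO replicate 2 or 3 or BYL719 replicate 1 or 2 was left out. It was also lost with median scaling (0.0673), with JIMT1 arrays alone (0.0569) and by the methods' t-test (0.303), by which the combination did not pass either (0.0595). The GSK2334470 values, 5.37, 4.92 and 5.26, overlapped with DMSO (adjusted p = 0.699).

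Under DMSO, YPEL2 was at least 2.58-fold higher in HCC1954 than in JIMT1. The measured difference, 1.75 on the log2 scale, passed the test (adjusted p = 1.11e-06), and the bound itself was not tested. Over the other settings the measured difference ran from 1.08 to 2.16, and the bound is given for the offset of 16 only. The difference between the lines in the YPEL2 response did not pass for any treatment, at 0.26 for BYL719 (95% interval -0.43 to 0.95), 0.01 for GSK2334470 (-0.68 to 0.70) and 0.56 for the combination (-0.13 to 1.25). With an offset of 50 the last was 0.79 and passed (adjusted p = 0.0245). The JIMT1 values behind these wide intervals are near background.

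YPEL1 in HCC1954 is given without a test. Its DMSO arrays read 5.16, 5.29 and 4.94, with scanner intensities of 64.97, 94.97 and 49.9 and detection p-values of 0.117, 0.0597 and 0.206, so it was detected on none. BYL719 arrays read 6.69, 6.57 and 6.63, GSK2334470 arrays 6.17, 6.25 and 6.32, and combination arrays 7.64, 7.57 and 7.64, all detected. No 2 groups overlapped. The level was at least 2.40-fold higher with BYL719, at least 1.84-fold with GSK2334470 and at least 4.75-fold with the combination. The combination was 0.99 above BYL719 and 1.37 above GSK2334470 on the log2 scale, and BYL719 was 0.38 above GSK2334470. Before normalization DMSO replicate 2, at 94.97, was close to the GSK2334470 array at 104. The BYL719 array at 108 then lay below the GSK2334470 array at 115.

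In JIMT1, YPEL1 was detected on 0 of 12 arrays. Scanner intensities there ran from 22.9 to 69.0, and no fold is given. Group means were 4.68 ± 0.17 under DMSO, 4.79 ± 0.25 with BYL719, 4.65 ± 0.21 with GSK2334470 and 4.74 ± 0.02 with the combination (SD, n = 3). YPEL4, a widely conserved member of the family, was detected on none of the 24 arrays, with scanner intensities from 16.4 to 50.5 and detection p-values from 0.439 to 0.996. A transcript below this limit cannot be seen on the array, so neither gene is shown to be absent.

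**Figure D2:**
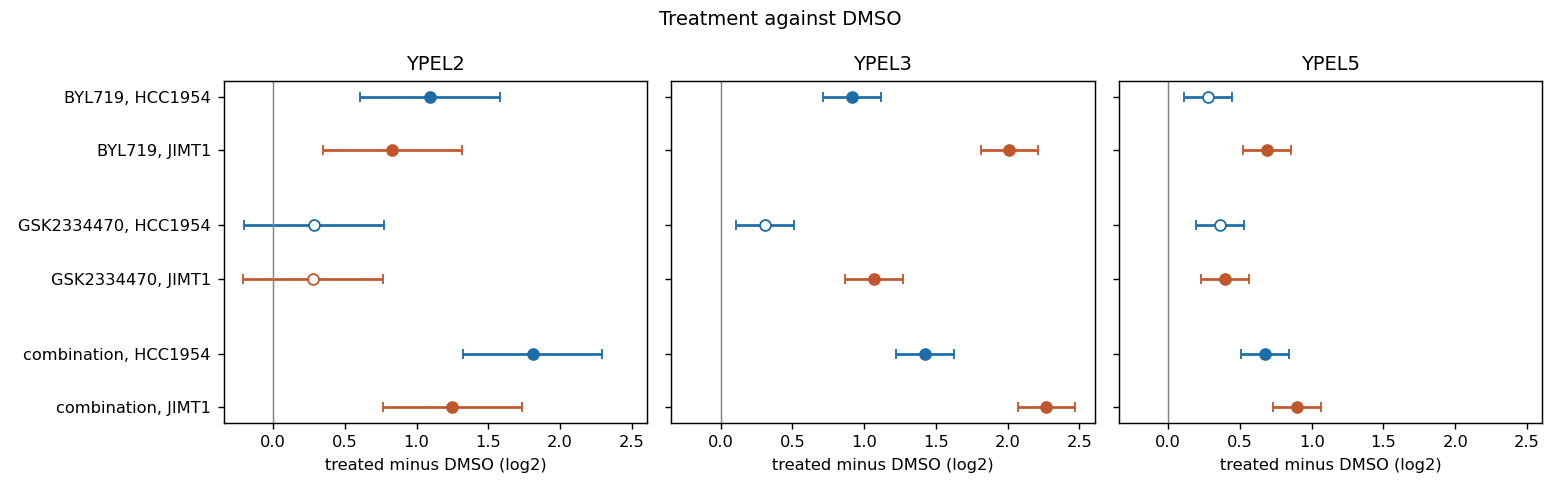
Difference of each treatment from DMSO (log2) for YPEL2, YPEL3 and YPEL5 in HCC1954 (blue) and JIMT1 (orange), with 95% intervals from the fit over 12109 genes. Filled points passed an adjusted p of 0.05. The YPEL2 differences in JIMT1 are the measured ones, although YPEL2 was not detected there under DMSO. All 18 points lie above 0, and YPEL3 in JIMT1 reaches 2.27 with the combination.

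Of YPEL2, YPEL3 and YPEL5, the combination raised 3 in each line. In HCC1954 the share of all genes called higher was 6.96%, and in JIMT1 it was 12.5%. BYL719 raised 2 in HCC1954 (YPEL2 and YPEL3; background 1.97%) and 3 in JIMT1 (background 6.27%). GSK2334470 raised 2 in JIMT1 (YPEL3 and YPEL5; background 0.974%). In HCC1954 it raised 0 of the 3 by limma, against 0.00826% of all genes. Without adjustment limma had 2 of the 3 under 0.05, and the methods' t-test had 1 unadjusted and 0 adjusted. No member was called lower in any of these comparisons, which share their DMSO arrays within a line. The share of all genes called lower with BYL719, GSK2334470 and the combination was 1.89%, 0% and 8.3% in HCC1954 and 5.15%, 0.306% and 8.84% in JIMT1. The share whose treated arrays all exceeded all DMSO arrays, as they did for YPEL3 and YPEL5 in every JIMT1 comparison, was 10.6%, 9.52% and 13.9% in HCC1954 and 13.9%, 9.62% and 21.7% in JIMT1.

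Adding GSK2334470 to BYL719 raised YPEL3 and YPEL5 further in HCC1954. YPEL3 was 0.51 higher with the combination than with BYL719 (SE 0.10, adjusted p = 0.00489) and YPEL5 0.40 higher (SE 0.08, adjusted p = 0.00818), where 1.41% of genes were called higher. For YPEL2 the difference was 0.71 without overlap between the groups (95% interval 0.23 to 1.20, adjusted p = 0.123), and 9.01% of all genes were higher on all arrays. In JIMT1 none of the 3 passed by limma, against 0.76% of genes called higher. There YPEL3 differed by 0.26 (0.06 to 0.46, adjusted p = 0.217), YPEL5 by 0.21 (0.04 to 0.37, adjusted p = 0.242) and YPEL2 by 0.42 (-0.07 to 0.91, adjusted p = 0.429). Without adjustment limma had 2 of the 3 under 0.05, and the methods' t-test had 1 unadjusted and 0 adjusted. The unadjusted shares of all genes were not counted for this comparison. The HCC1954 calls depended on the setting. YPEL3 did not pass with median scaling (adjusted p = 0.519), with HCC1954 arrays alone (0.0508) or by the methods' t-test (0.163), and the values for YPEL5 were 0.772, 0.0523 and 0.24. YPEL2 passed there with an offset of 50 (0.63, adjusted p = 0.0145) and by the methods' t-test (adjusted p = 0.0329). Whether this step differed between the lines was not tested.

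Adding BYL719 to GSK2334470 raised all 3 members in both lines. In HCC1954 the differences were 1.52 for YPEL2 (adjusted p = 0.000192), 1.12 for YPEL3 (adjusted p = 2.68e-07) and 0.32 for YPEL5 (adjusted p = 0.0153), against 3.67% of genes called higher. In JIMT1 they were 0.97 for YPEL2 (adjusted p = 0.00993), 1.20 for YPEL3 (adjusted p = 6.6e-08) and 0.50 for YPEL5 (adjusted p = 0.000328), against 6.68%. The YPEL5 difference in HCC1954 was 0.06 with median scaling (adjusted p = 0.845). It did not pass with HCC1954 arrays alone (adjusted p = 0.0568), by the methods' t-test (0.19), or without GSK2334470 replicate 2 (adjusted p = 0.0591) or combination replicate 1 (adjusted p = 0.0877). Without combination replicate 1, the YPEL5 difference from BYL719 was lost as well (0.32, adjusted p = 0.0589). In JIMT1, the YPEL2 difference was lost without GSK2334470 replicate 2 (adjusted p = 0.0569) or combination replicate 3 (adjusted p = 0.052). That of YPEL5 in JIMT1 did not pass with median scaling (adjusted p = 0.157). By the methods' t-test YPEL3 in HCC1954 (adjusted p = 0.0632) and YPEL2 and YPEL5 in JIMT1 (0.125 and 0.0743) did not pass.

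The single agents, given at the same concentration and time, differed for YPEL3 in both lines. BYL719 was 0.60 above GSK2334470 in HCC1954 (SE 0.10, adjusted p = 0.00174, background 0.95%) and 0.94 above it in JIMT1 (adjusted p = 3.8e-06, background 2.23%). In HCC1954 the YPEL3 difference was 0.40 with median scaling (adjusted p = 0.302), and it did not pass by the methods' t-test (adjusted p = 0.248), nor did that in JIMT1 (0.0538). YPEL5 was 0.30 higher with BYL719 in JIMT1 (adjusted p = 0.0411), a call lost on leaving out any of 5 of the 6 arrays compared, all but BYL719 replicate 3 (adjusted p from 0.0636 to 0.153), and also with the replicate block (0.0651), with median scaling (0.993), with no filter (0.0719), with every probe tested (0.0696), with JIMT1 arrays alone (0.0856) and by the methods' t-test (0.202). In HCC1954 the YPEL5 difference was -0.08 (95% interval -0.25 to 0.09). YPEL2 was 0.81 higher in HCC1954 without overlap (0.32 to 1.30, adjusted p = 0.0734), beside 10.5% of all genes, and passed with an offset of 50 (0.67, adjusted p = 0.0123). It was 0.56 higher in JIMT1 (95% interval 0.07 to 1.04, adjusted p = 0.24).

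The combined effect was then set against the sum of the single effects. For YPEL3 in JIMT1 the combination fell short of that sum by 0.81 on the log2 scale (departure -0.81, SE 0.14, adjusted p = 0.0349, where 0.0165% of genes were called lower). The size ran from -0.65 to -0.86 over the 22 other settings, but the call was lost in 15 of them, among them median scaling (adjusted p = 0.999) and leaving out any of 10 of the 12 JIMT1 arrays (0.0539 to 0.111), all but DMSO replicate 3 and combination replicate 3. In HCC1954 the YPEL3 departure was 0.20 (95% interval -0.08 to 0.49, adjusted p = 0.803). YPEL2 departed by 0.43 in HCC1954 (-0.26 to 1.12) and 0.14 in JIMT1 (-0.55 to 0.83), and YPEL5 by 0.04 (-0.20 to 0.28) and -0.19 (-0.43 to 0.05), none of which passed. The YPEL1 value in HCC1954, -0.13, is a description and changed sign with the background correction.

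**Figure D3:**
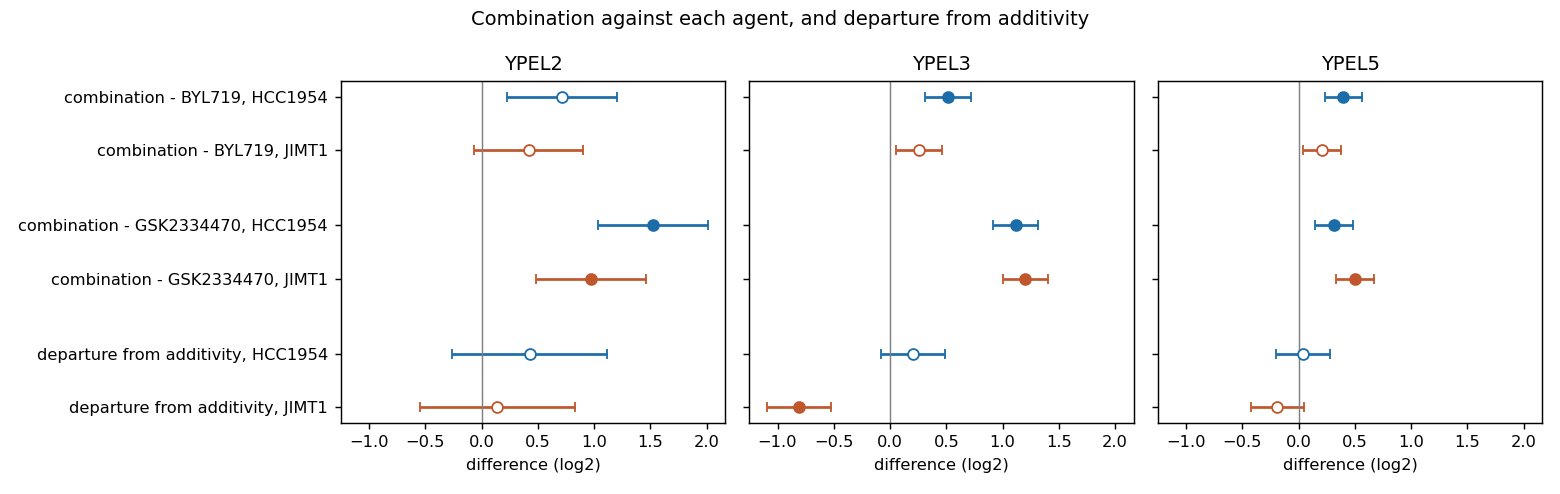
Combination minus BYL719, combination minus GSK2334470, and departure of the combination from the sum of the single effects (all log2), for YPEL2, YPEL3 and YPEL5 in HCC1954 (blue) and JIMT1 (orange), with 95% intervals. Filled points passed an adjusted p of 0.05. YPEL3 in JIMT1 is the one departure from additivity that did, at -0.81.

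Across the 8 groups, YPEL5 was ordered by line before treatment. The 3 treated JIMT1 groups were the highest, the HCC1954 combination (10.84 ± 0.13) exceeded JIMT1 DMSO (10.71 ± 0.02), and HCC1954 DMSO was the lowest at 10.16 ± 0.05 (SD, n = 3). Of the neighbors in this order only HCC1954 GSK2334470 and BYL719 overlapped. For YPEL3 the order followed treatment, with both combination groups on top and overlapping. The BYL719 groups of the lines came next and overlapped too. HCC1954 GSK2334470 (8.22 ± 0.23), JIMT1 GSK2334470 (7.98 ± 0.08) and HCC1954 DMSO (7.91 ± 0.07) formed a run of overlapping neighbors, and JIMT1 DMSO stood alone at the bottom. YPEL2 had all 4 HCC1954 groups above the 4 of JIMT1, although HCC1954 DMSO and the JIMT1 combination overlapped.

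Once the mean of each line was subtracted, YPEL3 and YPEL5 ran closely together over the 24 arrays (Pearson r = 0.93), and YPEL2 followed them at 0.81 and 0.80. Within HCC1954 these pairs had r = 0.84, 0.92 and 0.80, and YPEL1 had 0.93, 0.93 and 0.93 with YPEL2, YPEL3 and YPEL5 over 12 arrays. Within JIMT1 the pairs of YPEL3 with YPEL5, YPEL2 with YPEL3 and YPEL2 with YPEL5 had r = 0.97, 0.82 and 0.86. YPEL1, not detected there, had 0.34, 0.21 and 0.29 with YPEL2, YPEL3 and YPEL5 in JIMT1, and 0.76, 0.52 and 0.58 over the 24 arrays. These are descriptions, since the arrays share their treatments and the groups lie apart. The genes most like YPEL3 among all tested were TMEM140 (r = 0.98), CCNG2 (0.98), a cyclin G, and FBXO32 (0.98), the ubiquitin ligase adaptor atrogin-1. For YPEL5 they were PAIP2 (0.95), a repressor of translation, STARD13 (0.95) and YTHDC1 (0.95), a nuclear reader of methylated adenosine in RNA. YPEL2 ran most like LFNG (0.93), FOXN3 (0.92) and FNBP1 (0.92), and YPEL1 most like SUSD6 (0.93), MMP13 (0.92) and NNMT (0.92). The last 3 followed YPEL1 in HCC1954 (0.96, 0.96 and 0.97) and less in JIMT1 (0.48, 0.35 and -0.18), where YPEL1 was not detected.

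The subunits of the CTLH complex, with which YPEL5 associates, were counted next. All 10 listed subunits were measured, and in HCC1954 limma called 0 of them under any treatment, against 1.97%, 0.00826% and 6.96% of all genes called higher with BYL719, GSK2334470 and the combination. The 0.00826% is 1 gene, and the largest rise in that comparison was that of YPEL1. Without adjustment 0, 2 and 2 were higher and 0 lower with BYL719, GSK2334470 and the combination, and the methods' t-test gave 0 after adjustment. The share of all genes before adjustment by limma was not counted in either line. In JIMT1 only MKLN1, the muskelin subunit, rose, by 0.34 with BYL719 (adjusted p = 0.0455) and by 0.42 with the combination (adjusted p = 0.008). These counts of 1 in 10 lie near the shares of all genes called higher there, 6.27% and 12.5%. With GSK2334470 limma called 0, with 1 higher before adjustment and 0 after adjustment by the methods' t-test. The MKLN1 call with BYL719 was lost in JIMT1 without DMSO replicate 2 or 3 or BYL719 replicate 2 or 3 (adjusted p from 0.0622 to 0.224), and also with the replicate block (0.0773), with no filter (0.0774), with JIMT1 arrays alone (0.123), with median scaling (0.626) and by the methods' t-test (0.358). That with the combination was lost without DMSO replicate 2 (adjusted p = 0.0559) or combination replicate 3 (adjusted p = 0.053), with median scaling (0.196) and by the methods' t-test (0.185). The median over the subunits was 0.15 with the combination in HCC1954 and 0.12 in JIMT1, against medians of -0.00 and 0.02 over all genes. GID4, the substrate receptor, differed by 0.38 in HCC1954 with the combination (adjusted p = 0.12).

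**Figure D4:**
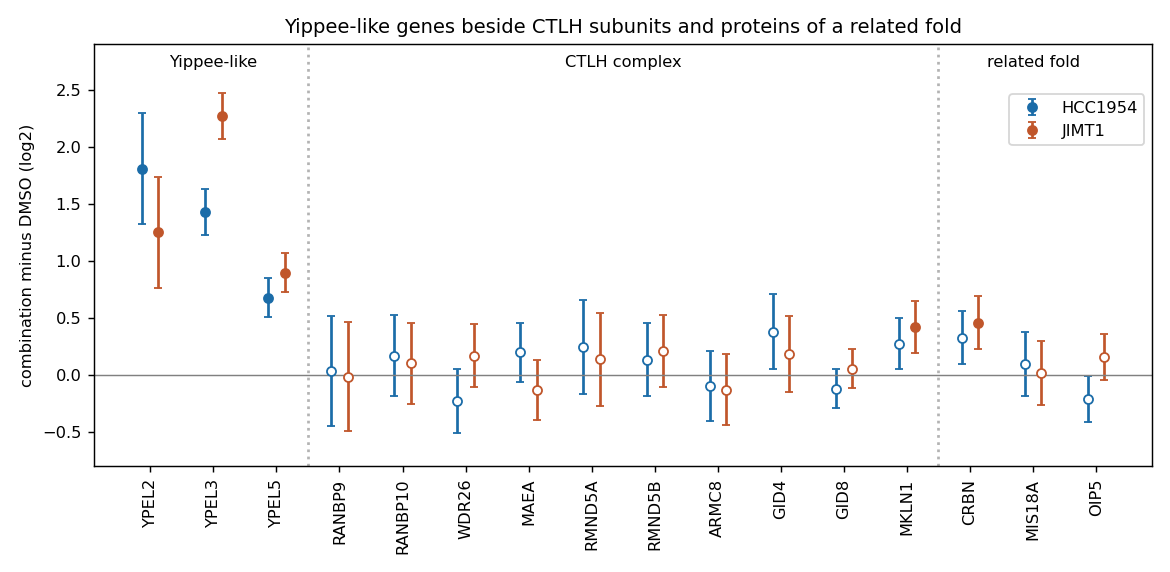
Difference of the combination from DMSO (log2, 95% intervals) for YPEL2, YPEL3 and YPEL5, the 10 CTLH subunits and 3 proteins of a related fold, in HCC1954 (blue) and JIMT1 (orange). Filled points passed an adjusted p of 0.05. Among the 13 other genes only MKLN1 (0.42) and CRBN (0.46) did, both in JIMT1.

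Proteins with a fold related to Yippee were also compared. CRBN, the substrate receptor cereblon, rose in JIMT1 by 0.48 with BYL719 (adjusted p = 0.0073) and by 0.46 with the combination (adjusted p = 0.00588), and differed by 0.33 with the combination in HCC1954 (adjusted p = 0.0553). The BYL719 rise was 0.32 with the mean of all probes (adjusted p = 0.0564). With median scaling neither rise in JIMT1 passed (adjusted p = 0.306 and 0.137), nor did either by the methods' t-test (0.118 and 0.0504), and the HCC1954 difference passed with an offset of 50 (0.0448). MIS18A and OIP5, which prime centromeres for new CENP-A, passed in no treatment of either line. Of all genes, 6.27% were called higher with BYL719 and 12.5% with the combination in JIMT1, and 6.96% with the combination in HCC1954. Without adjustment limma had 1 of the 3 genes higher and 1 lower with the combination in HCC1954, and 0 with either single agent. The lower gene was OIP5, at -0.21 (adjusted p = 0.158). In JIMT1 limma had 1 higher with each treatment before adjustment.

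Since YPEL3 is known as a p53 target, 20 other p53 targets were counted, of which 16 were measured. Under the combination 5 were higher and 5 lower in HCC1954, and 4 higher and 4 lower in JIMT1. Over all genes, 6.96% were called higher and 8.3% lower in HCC1954, and 12.5% and 8.84% in JIMT1. CDKN1A, which encodes the cell-cycle inhibitor p21, fell by 0.54 and 0.64 on the log2 scale in HCC1954 and JIMT1 (adjusted p = 0.00965 and 0.00183). The nuclease gene AEN fell by 1.54 and 1.09 (adjusted p = 1.06e-07 and 7.16e-06), and TIGAR and PHLDA3 were also lower in both lines. TP53INP1 rose by 1.61 and 0.94 (adjusted p = 3.6e-08 and 2.67e-05), and SESN1, XPC and DDB2 were also higher in both. The CDKN1A call in HCC1954 was lost without DMSO replicate 3 (adjusted p = 0.0509). That of XPC in HCC1954 was lost without any 1 of the 6 arrays compared (0.0558 to 0.148), and that of DDB2 in JIMT1 without any but DMSO replicate 1 (0.0636 to 0.122). With median scaling SESN1, XPC and DDB2 did not pass in HCC1954 (adjusted p = 0.167, 0.722 and 0.1), nor PHLDA3 and DDB2 in JIMT1 (0.185 and 0.124). CDKN1A passed by the methods' t-test in neither line (adjusted p = 0.149 and 0.0976). Medians over the list were 0.01 and -0.04, against -0.00 and 0.02 over all genes. YPEL3 rose by 1.43 and 2.27 in the same comparisons.

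A reference list of 12 transcripts that rise on FOXO activation was already known to respond in these arrays, so it serves for size only. Under the combination 12 rose in HCC1954 (median 1.35) and 11 in JIMT1 (median 1.70), against 6.96% and 12.5% of all genes called higher. YPEL3 lay near these medians in HCC1954 and above in JIMT1, YPEL5 lay below both, and YPEL2 lay above in HCC1954 at 1.81. In JIMT1 its measured difference of 1.25, against a DMSO group without detection, lay below.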

How the data were processed

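RNA of 24 samples was measured on 1-color Illumina bead arrays. The authors deposited scanner intensity per probe, unnormalized, with detection p-values (steps of 1 in 770) and the count of beads, which was 9 to 32 for the family's probes. GenomeStudio is named in the submitters' notes, with no version given in the sources used here. The authors' processed intensity table, of unstated method and with 28% of values below 0, served only as an alternative. A further 24 per-array columns, of bead standard errors, stayed out. Intensities were corrected with neqc (limma 3.58.1, R 4.3.3; offset 16, detection p), turned into log2 and quantile-normalized over 24 arrays, so none of the log2 values is the deposited one. Of 47323 probes, 30113 had 1 gene symbol, 8 several and 17202 none. Probes detected on all 3 arrays of 1 group were kept and the brightest probe stood for each of 12109 genes. A limma model of 8 group means (16 residual degrees of freedom) gave each contrast, with Benjamini-Hochberg adjustment over all genes and a threshold of 0.05. The code was tested on simulated data. Alternatives were another offset, no background correction, median scaling, the processed table, other filters, the mean of all probes or every probe tested on its own, arrays of 1 line, a replicate block, Student's t-test named in the study's methods, and leaving out each array. Members and lists were chosen with earlier results of these data known. Besides the family, the text names list members and the 3 genes most correlated with each member. The lists were CTLH subunits, related folds, p53 targets, FOXO-responsive transcripts and cell type markers. The precision is limited by the number of arrays.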

Additional observations from a re-analysis of the deposited data

Results flagged for a closer look

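The response of YPEL3 differed between the lines by a test of the difference itself. The effect in HCC1954 minus that in JIMT1 was -1.10 for BYL719 (adjusted p = 0.000167), -0.84 for the combination (adjusted p = 0.000859) and -0.76 for GSK2334470 (adjusted p = 0.0392) on the log2 scale. The first and second calls were kept in all 21 other settings tried, which did not include the methods' t-test or arrays of 1 line. The last was lost in 14 of the 21. Among these was leaving out any array of JIMT1 DMSO, JIMT1 GSK2334470 or HCC1954 DMSO, or HCC1954 GSK2334470 replicate 3 (adjusted p from 0.0557 to 0.0907). These 3 differences share the DMSO arrays of each line, where YPEL3 was 7.91 ± 0.07 in HCC1954 and 6.91 ± 0.08 in JIMT1 (SD, n = 3). The part of that DMSO level in the difference was not tested.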

How the results depend on the processing

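Of 1210 values from other settings over 64 comparisons of the members, 1070 kept direction and call or, untested, moved within their spread, 85 lost the call, 12 gained it, 22 untested values of YPEL1 moved by more than their spread and 21 changed sign. Most losses came with the methods' t-test after adjustment (16), median scaling (13) and leaving out 1 array (39). Of the sign changes, 2 were the departure of YPEL1 from additivity in HCC1954, -0.13 in the report, 0.028 without background correction and 0.12 with an offset of 50. The other 19 were of tested values called in neither setting. The departure of YPEL2 in JIMT1 was -0.0096 without background correction, -0.11 in the processed table and -0.15 to 0.32 on leaving out 1 array. The difference between the lines for YPEL2 was -0.12 in the processed table and -0.031 to 0.48 on leaving out 1 array for BYL719, and -0.089 without background correction, -0.28 in the processed table and -0.28 to 0.23 on leaving out 1 array for GSK2334470. YPEL2 with GSK2334470 in HCC1954 ran from -0.0012 to 0.50 on leaving out 1 array. With median scaling the departures of YPEL3 and YPEL5 in HCC1954 were -0.0018 and -0.12 and the YPEL5 difference between the lines for GSK2334470 was 0.084, and on leaving out 1 array the values for YPEL5 ran from -0.037 to 0.088 and from -0.066 to 0.0040. Among listed genes 17 values changed sign, called in neither setting. With BYL719 in HCC1954 CRBN was -0.065 with median scaling, and on leaving out 1 array CRBN ran from -0.057 to 0.10 and GDF15 from -0.10 to 0.027. With BYL719 in JIMT1 GID4 ran from -0.028 to 0.24 and DDB2 from -0.021 to 0.10. With GSK2334470 in HCC1954 SESN1 and TIGAR were 0.058 and 0.066 with median scaling and CRBN -0.088 with the mean of all probes, and on leaving out 1 array CRBN ran from -0.039 to 0.12 and TIGAR from -0.12 to 0.013. GID4 in JIMT1 was 0.045 with the mean of all probes and -0.18 to 0.091 on leaving out 1 array. Median scaling lowered the members called for BYL719 to 1 in HCC1954, in place of 2, and to 1 in JIMT1, in place of 3, and for GSK2334470 in JIMT1 to 1 in place of 2. It gave medians over all genes of -0.12 for the combination and 0.11 for GSK2334470 in HCC1954, against -0.0024 and 0.015 in the report. Against those medians YPEL3 rose with the combination under every scaling. With median scaling, 187 genes were higher and 615 lower with the combination in HCC1954 (23.3% higher), against 843 and 1005 (45.6%) in the report, and 649 and 297 in JIMT1 (68.6%) against 1511 and 1071 (58.5%). It also gave 25 higher and 20 lower for BYL719 in HCC1954, against 238 and 229, and 193 and 123 in JIMT1, against 759 and 624. For GSK2334470 in JIMT1 it gave 17 and 3, against 118 and 37. With arrays of JIMT1 only, the GSK2334470 count there was 1. The methods' t-test after adjustment called 0 for BYL719 in HCC1954 and 0 for GSK2334470 in JIMT1. Unadjusted it called 1 for GSK2334470 in HCC1954, where over all genes it had 660 higher and 426 lower. Leaving out 1 array gave 1 to 2 for BYL719 and 0 to 2 for GSK2334470 in HCC1954, and 1 to 2 for GSK2334470 in JIMT1. The cause of these changes was not tested. Deviations of same-numbered arrays from their group means had correlations from -0.21 to 0.23 in HCC1954 and -0.12 to 0.09 in JIMT1. Their means were -0.004 and -0.02, against 0.002 and 0.01 for arrays of different number. Whether same-numbered arrays share more than a number cannot be settled from these values. With the replicate block the members called remained 2, 0 and 3 for BYL719, GSK2334470 and the combination in HCC1954 and 3, 2 and 3 in JIMT1, and all genes called for BYL719 in HCC1954 went from 238 higher and 229 lower to 200 and 188. The 1 member call lost under the block was YPEL5 with BYL719 against GSK2334470 in JIMT1 (adjusted p = 0.0651 in place of 0.0411), and of the listed genes named MKLN1 (0.0773) and CDKN1A in HCC1954 (0.0804) lost theirs with BYL719. A bead chip block was not run, because the column names give no chip. Detection limits YPEL1, YPEL2 and YPEL4.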
